A study of Homo sapiens with 12 samples.

Results

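The genes of fatty acid synthesis and desaturation were examined in 2 human clear cell renal cell carcinoma (ccRCC) cell lines and in their sunitinib-resistant derivatives. The 10 members were taken by name as SREBF1, FASN, ACACA, ACACB, SCD, SCD5, ELOVL6, FADS1, FADS2 and ACSS2, out of 45478 genes in the count table, and all 10 passed the filter on low counts. Parental 786-O and A498 cells were sequenced without drug selection. The resistant groups, resistant 786-O and resistant A498, had been kept in rising sunitinib, an inhibitor of VEGF and PDGF receptors, until they grew to confluence at 4 μM and at 2 μM respectively. This selection took 4 months or longer, or above 20 passages. The treatment label of all 4 groups is "none", and none of them carries an engineered allele. All sample titles also hold a code with "veh", whose meaning the titles do not state. Each group had 3 libraries of polyadenylated RNA, and each resistant group is a single selected culture as far as the labels say. Nothing states that the 3 libraries of a group came from separate cultures, so that p-values measure the spread between these libraries, which may be technical.

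In the cytosol, acetyl-CoA is made from citrate by ACLY or from acetate by ACSS2. Acetyl-CoA carboxylase (ACACA in the cytosol, ACACB at the mitochondrial surface) turns it into malonyl-CoA, which fatty acid synthase (FASN) builds into palmitate. ELOVL6 lengthens palmitate to stearate, and the delta-9 desaturases SCD and SCD5 put the first double bond into stearate or palmitate. FADS1 (delta-5) and FADS2 (delta-6) desaturate polyunsaturated fatty acids. SREBF1 encodes SREBP1, the transcription factor that is released from the membrane by cleavage and drives most of these genes. ccRCC cells are known for storing lipid and for the loss of VHL with stable HIF-2α.

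Before the results, the labels and libraries set limits on what can be compared. Total counts per library ran from 20042519 to 25831163 in resistant A498, from 21686648 to 34951585 in A498, from 42643735 to 46888482 in resistant 786-O and from 40845091 to 47972092 in 786-O. The libraries labelled resistant A498 went against their label. CPM (counts scaled to library size) are used throughout. The 62 genes with at least 10 CPM in A498 and at most 3 counts in each library of 786-O stood at a median of 0.362% of their A498 level in resistant A498. The 33 genes with the reverse pattern stood at 94.6% of their 786-O level. The resistant A498 libraries correlated in log2 CPM with those of A498 at a median of 0.870, with those of 786-O at 0.951 and with those of resistant 786-O at 0.982. The results for the libraries labelled resistant A498 are therefore given against A498, their labelled parent, and also against 786-O. Each group has a batch label of its own, so batch and group cannot be told apart. Of 7 kidney and ccRCC markers, PAX8 was at 200 to 312 CPM as a group mean, whereas CA9, a HIF target, was at 1.29 CPM in A498 and at 0.0175 CPM or less in the other groups. Their summed level, mostly VIM, was 7217 to 7656 CPM in 786-O libraries, 4834 to 5025 in resistant 786-O, 3857 to 4012 in A498 and 3464 to 3615 in resistant A498, and 2 of the 7 were higher and 3 lower in resistant 786-O than in its parent. The summed level of 6 T cell markers was at most 0.590 CPM in any library. The summed level of 6 fibroblast and endothelial markers was 50.9 to 62.5 CPM in A498 libraries, mostly COL1A1, and at most 10.3 CPM in all others. The part of these differences in the results below was not tested. A lower share of cells expressing a gene and a lower level per cell cannot be told apart in bulk RNA.

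The sequence upstream of SCD and SCD5 is shown because these 2 desaturases had the largest rises of the 10 genes in both resistant groups against 786-O. Both stretches are the 250 bases before the start given by RefSeq on GRCh38.p14, chr10:100346983-100347232 on the plus strand for SCD and chr4:82798797-82799046 on the minus strand for SCD5. Capitals mark the CCAAT box, the motif of NF-Y, a factor known to work beside SREBP, read as CCAAT or, on the other strand, as ATTGG.
SCD: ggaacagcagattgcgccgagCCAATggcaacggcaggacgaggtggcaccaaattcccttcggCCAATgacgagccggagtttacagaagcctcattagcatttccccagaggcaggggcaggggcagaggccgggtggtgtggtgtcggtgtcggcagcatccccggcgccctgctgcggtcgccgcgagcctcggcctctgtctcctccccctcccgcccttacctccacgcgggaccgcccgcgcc
SCD5: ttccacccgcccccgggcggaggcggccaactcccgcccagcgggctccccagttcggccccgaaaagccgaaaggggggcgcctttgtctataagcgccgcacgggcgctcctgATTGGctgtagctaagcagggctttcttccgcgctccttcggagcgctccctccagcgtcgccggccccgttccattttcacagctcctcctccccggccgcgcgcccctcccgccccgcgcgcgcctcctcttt
SCD held 2 CCAAT boxes, beginning 229 and 186 bases before the start, and SCD5 held 1 at 135 bases. A CCAAT box was present upstream of 5 of the 9 members with an entry in the table (SCD, SCD5, ACACA, ACACB and ACSS2), in 6 of their 14 windows, and in 32.0% of all 35116 windows of the same length. The sterol regulatory element core TCACNCCAC (0.883% of all windows), the E-box CACGTG (6.34%) and the LXR direct repeat of AGGTCA spaced by 4 bases (0.0142%) were each found in 0 member windows, on both strands. These matches describe letters in a window and not binding. FASN was the member without an entry. At shares as low as those of the sterol and LXR motifs, 0 of 14 windows says little about these genes.

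Levels of different genes were compared per length, as CPM per kilobase of merged exon. In 786-O the order was SCD (59.5 ± 1.87, mean ± SD, n = 3), FASN (45.0 ± 1.73), FADS2 (32.3 ± 0.555), FADS1 (20.1 ± 0.137), ELOVL6 (13.1 ± 0.0502), ACACA (8.74 ± 0.319), SREBF1 (7.92 ± 0.229), ACSS2 (3.90 ± 0.0488), ACACB (0.245 ± 0.0363) and SCD5 (0.0220 ± 0.0138), and no 2 neighbours overlapped between libraries. SCD, FASN, FADS2 and FADS1 also led in resistant 786-O and in resistant A498, where the libraries of FASN (77.4 ± 5.24) and FADS2 (70.2 ± 1.53) overlapped. A498 differed in that SREBF1 (28.0 ± 0.374 per kilobase) took the third place, above FADS2 (24.9 ± 1.50) and FADS1 (19.6 ± 0.638). SCD reached 159 ± 24.2 per kilobase in resistant 786-O, 280 ± 25.5 in A498 and 292 ± 10.5 in resistant A498. SCD5 moved from last place in 786-O and A498 to ninth, above ACACB, in resistant A498 (0.997 ± 0.114 against 0.515 ± 0.0368). The order depends on the length used: per kilobase of coding sequence, FADS2 and FADS1 stood above FASN in every group.

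**Figure D1:**
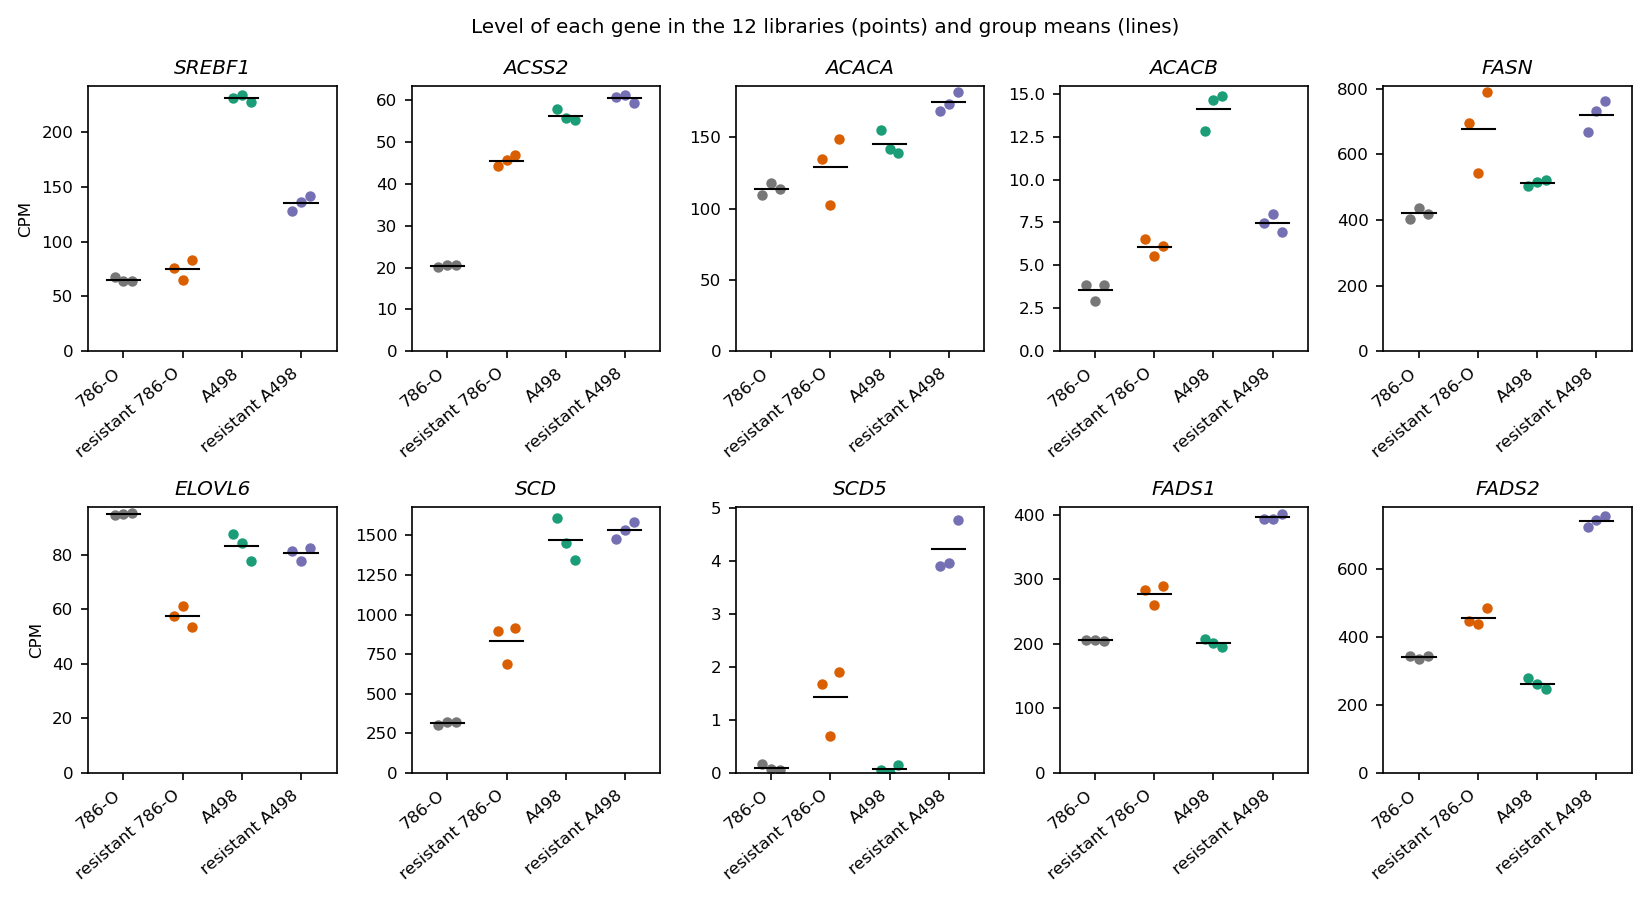
CPM of each of the 10 genes (vertical axes, linear from 0) in the 3 libraries of 786-O, resistant 786-O, A498 and resistant A498; each point is 1 library and each line is a group mean. SCD was at 301 to 319 CPM in 786-O and at 686 to 916 CPM in resistant 786-O, while SREBF1 was at 227 to 234 CPM in A498 and at 128 to 142 CPM in resistant A498.

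Of the 10 genes, the comparison of resistant 786-O with 786-O had 8 higher, 1 lower and 1 not called by edgeR's quasi-likelihood test at an adjusted p of 0.05. The background was dense: 68.5% of the 19929 genes tested were called, 35% higher and 33.5% lower. The median log2 fold change was 0.56 over the members and 0.033 over all genes tested. SCD5 passed the low-count filter through the resistant groups alone and so had to differ from the parents; over the other 9 members, 7 were higher and 1 lower, with a median of 0.43. SCD, SCD5 and ACSS2 changed by more than 2-fold, against 22% of all genes. The libraries of 8 members did not overlap between the groups, against 68.9% of all genes, and those of SREBF1 and ACACA did. SCD5 is in both counts, where its place follows from the filter. One library bears on this comparison, since resistant 786-O replicate 2 was the lowest of its group for 8 of the 10 members. In genes of at least 10 CPM, this library deviated from the other two by a median log2 ratio of -0.22 over 8 members and 0.013 over 9925 genes.

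Against A498, the libraries labelled resistant A498 were higher in 5 members, lower in 2 and not called in 3. Here 72.7% of all genes were called, 36.3% higher and 36.4% lower. The median over the members was 0.18 and that over all genes -0.0041; without SCD5, 4 members were higher and the median was 0.10. SCD5 and FADS2 changed by more than 2-fold, as did 30.8% of all genes, and 8 members had no overlap between the groups (78.5% of all genes), the exceptions being SCD and ELOVL6. SCD5 is again in both counts by way of the filter. Against 786-O, the same libraries were higher in 9 members and lower in 1, in a comparison that called 63.6% of all genes, 31.6% higher and 32.1% lower, and the median was 1.06 over the members and 0.0029 over all genes (8 higher and a median of 1.05 without SCD5). In it, 6 members (SREBF1, ACACB, SCD, SCD5, FADS2 and ACSS2) changed by more than 2-fold, against 20% of all genes, and all 10 were free of overlap, against 73.4%. Here too SCD5 is in both counts by way of the filter. This comparison uses the same 786-O libraries as that of resistant 786-O. Against resistant 786-O, 9 members were higher and 1 was not called, against 46.1% called and 23% called higher among all genes, with a median of 0.50 over the members and -0.025 over all genes. SCD5 alone passed 2-fold there (7.3% of all genes did), and 9 members did not overlap (51.7% of all genes), FASN being the exception.

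**Figure D2:**
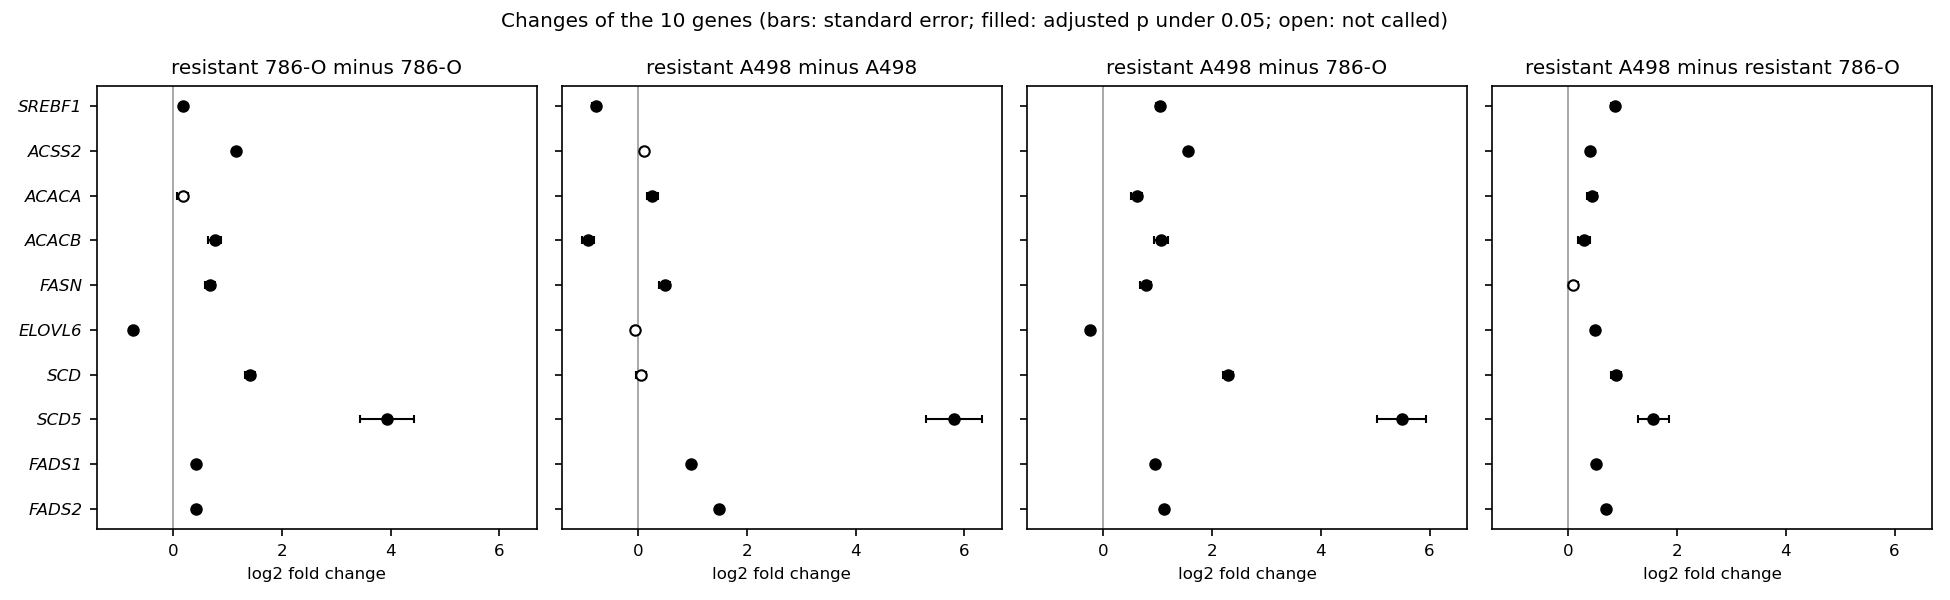
Log2 fold change (horizontal axes) of each of the 10 genes in 4 comparisons; bars show 1 SE, filled points had an adjusted p under 0.05 and open points were not called. ELOVL6 had a negative value in resistant 786-O against 786-O (-0.73) and SCD5 had the largest positive value in all 4 panels, up to 5.81 in resistant A498 against A498. SCD5 passed the low-count filter through the resistant groups alone, so its filled points against a parent are not a test.

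SREBF1 (chromosome 17, 17810399 to 17837002, minus strand), which shares 556 of its 8234 exonic bases with RAI1 on the other strand, was measured at 67.4, 64.4 and 63.9 CPM in 786-O and at 75.8, 64.8 and 83.1 CPM in resistant 786-O. The groups overlapped, and the log2 fold change was 0.19 (SE 0.07, adjusted p = 0.025, edgeR). The call was lost without resistant 786-O replicate 3 (adjusted p = 0.085, edgeR), without 786-O replicate 2 (0.076) or without 786-O replicate 3 (0.083). After each library's trend with GC content and exon length was removed, the value became -0.40 (adjusted p = 9.5e-06, edgeR), so that its direction depends on the processing. SREBF1 reached 231, 234 and 227 CPM in A498 and 128, 136 and 142 CPM in resistant A498, without overlap. Its log2 fold change in resistant A498 was -0.77 (SE 0.07) against A498 and 1.05 (SE 0.07) against 786-O. Both calls held after removal of that trend, at -0.41 and 0.70. Between the parents, SREBF1 differed by -1.82 on the log2 scale (786-O minus A498, SE 0.07), and 74.2% of all genes were called in that comparison.

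Within libraries, the ratio of SREBF1 to SREBF2 counts does not depend on library scaling. SREBF2 encodes SREBP2, the paralog that favours sterol genes. The ratio was 0.290 to 0.306 in 786-O, 0.222 to 0.226 in resistant 786-O, 1.02 to 1.05 in A498 and 0.332 to 0.366 in resistant A498, and none of these ranges overlapped. The lower ratio of resistant 786-O against 786-O went with a higher SREBF2 level (332 against 220 CPM as group means, log2 fold change 0.59, SE 0.06). SREBF2 was also higher in resistant A498 than in A498 (0.81 on the log2 scale) and than in 786-O (0.82).

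ACSS2 (chromosome 20, 34872146 to 34927962, plus strand), which activates acetate, was at 20.2, 20.6 and 20.7 CPM in 786-O and at 44.3, 45.6 and 46.8 CPM in resistant 786-O. The 2 groups were far apart relative to their spread, with a log2 fold change of 1.16 (SE 0.05, adjusted p = 2.5e-11, edgeR), and 0.96 once the GC and length trend was removed. In A498 the gene was at 57.9, 55.8 and 55.2 CPM, and in resistant A498 at 60.9, 61.3 and 59.2 CPM. These libraries did not overlap, but the difference of 0.10 on the log2 scale was not called (SE 0.05, adjusted p = 0.054, edgeR). It was called, at 0.27, with the trend removed. Against 786-O, ACSS2 was higher in resistant A498 by 1.56 on the log2 scale (SE 0.05). The ratio of ACSS2 to ACLY counts was 0.0386 to 0.0400 in 786-O and 0.0721 to 0.0860 in resistant 786-O, while in A498 it was 0.0650 to 0.0660 and in resistant A498 0.0832 to 0.0877. ACLY, the citrate-using enzyme, had group means of 519 CPM (786-O) and 567 CPM (resistant 786-O), a difference that was not called (0.13 on the log2 scale, adjusted p = 0.056, edgeR).

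ACACA (chromosome 17, 37084992 to 37406836, minus strand), the cytosolic carboxylase, was at 110, 118 and 114 CPM in 786-O and at 135, 103 and 149 CPM in resistant 786-O. The resistant 786-O libraries lay on both sides of those of 786-O, and the log2 fold change of 0.18 was not called (SE 0.10, adjusted p = 0.12, edgeR). Without resistant 786-O replicate 2 the value was 0.32 and was called (adjusted p = 2.8e-07, edgeR). In resistant A498, at 168, 173 and 182 CPM, ACACA was higher than in A498 (155, 142 and 139 CPM) by 0.26 on the log2 scale (SE 0.10, adjusted p = 0.024, edgeR), a call that was lost without A498 replicate 2 (adjusted p = 0.067, edgeR) or replicate 3 (0.087). Against 786-O the value was 0.62 (SE 0.10).

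ACACB (chromosome 12, 109116587 to 109268226, plus strand), the mitochondrial-surface carboxylase, was low in all groups. Its libraries held 114 to 175 counts in 786-O and 243 to 321 in resistant 786-O, or 2.95 to 3.88 CPM and 5.56 to 6.56 CPM, a log2 fold change of 0.77 (SE 0.12). In A498 it was at 12.8 to 14.9 CPM and in resistant A498 at 6.93 to 7.99 CPM, so that it was lower than in A498 by -0.92 on the log2 scale (SE 0.11) and higher than in 786-O by 1.06 (SE 0.12). The ratio of ACACA to ACACB counts was 28.6 to 40.1 in 786-O, 18.4 to 24.5 in resistant 786-O, 9.35 to 12.1 in A498 and 21.7 to 26.3 in resistant A498. The difference between resistant A498 and resistant 786-O, 0.29 on the log2 scale, had an adjusted p of 0.047 (edgeR) and was lost with the replicate number as a block (adjusted p = 0.062, edgeR).

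FASN (chromosome 17, 82078338 to 82098294, minus strand), which makes palmitate, was at 404, 436 and 420 CPM in 786-O and at 695, 544 and 789 CPM in resistant 786-O. All resistant 786-O libraries were above all 786-O libraries, with a log2 fold change of 0.69 (SE 0.10, adjusted p = 1.5e-05, edgeR) and 0.82 without resistant 786-O replicate 2. With the trend with GC content and exon length removed, the value was -0.083 and was not called (adjusted p = 0.28, edgeR). FASN has the highest exonic GC content of the 10 genes, 65.2%, against a median of 48.04% over the genes tested. In A498 it was at 504, 515 and 521 CPM and in resistant A498 at 667, 734 and 763 CPM, a log2 fold change of 0.49 (SE 0.10) that became 0.86 with the trend removed. Against 786-O the rise in resistant A498 was 0.78 (SE 0.10) before and 0.30 after that step, and it was called both times. FASN was the member that did not pass the test between resistant A498 and resistant 786-O (0.093 on the log2 scale, SE 0.10, adjusted p = 0.45, edgeR). It was called there at 0.38 with the trend removed (adjusted p = 0.00047, edgeR) and at 0.23 without resistant 786-O replicate 3 (adjusted p = 0.037, edgeR). The ratio of FASN to ACACA counts was 3.68 to 3.69 in 786-O and 5.15 to 5.30 in resistant 786-O, against 3.25 to 3.75 in A498 and 3.96 to 4.23 in resistant A498. The exonic GC content of ACACA is 47.9%, and this ratio was not corrected for GC content.

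**Figure D3:**
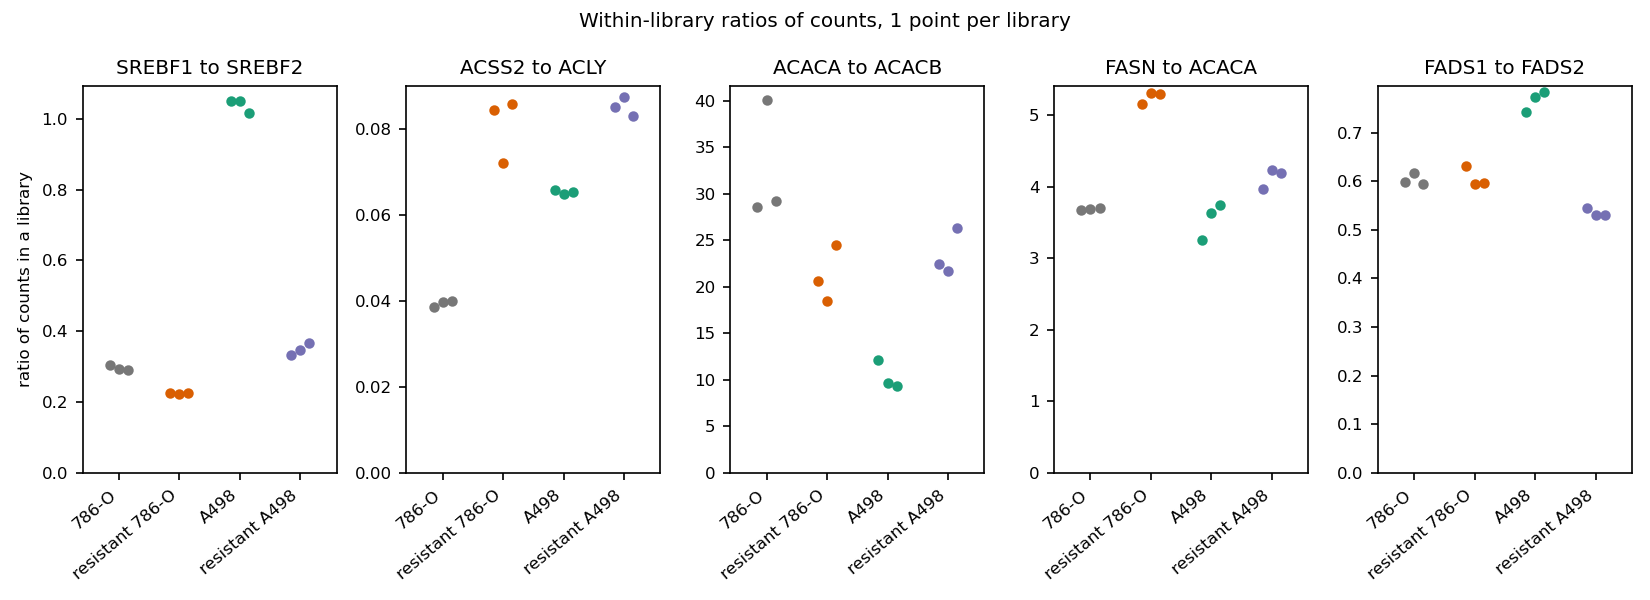
Ratio of the counts of 2 genes within a library (vertical axes, linear from 0), with 1 point for each of the 3 libraries of 786-O, resistant 786-O, A498 and resistant A498. SREBF1 to SREBF2 is highest in A498 (1.02 to 1.05), and FASN to ACACA is highest in resistant 786-O (5.15 to 5.30).

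ELOVL6 (chromosome 4, 110045846 to 110199199, minus strand), which lengthens palmitate, was the one member called lower in resistant 786-O. It was at 94.6, 95.1 and 95.4 CPM in 786-O and at 57.6, 61.3 and 53.4 CPM in resistant 786-O, a log2 fold change of -0.73 (SE 0.06, adjusted p = 3.3e-08, edgeR). ELOVL6 has the lowest exonic GC content of the members, 42.0%, and its value was also -0.73 with the trend removed. In A498 it was at 87.8, 84.4 and 77.8 CPM and in resistant A498 at 81.3, 77.9 and 82.7 CPM, with overlap and no call (-0.047 on the log2 scale, SE 0.06, adjusted p = 0.48, edgeR). With the trend removed, this difference was called at -0.24 (adjusted p = 0.0011, edgeR). Against 786-O the resistant A498 libraries were lower by -0.24 (SE 0.06, adjusted p = 0.0022, edgeR), a call that was lost when only library size was used for scaling (-0.085, adjusted p = 0.20, edgeR).

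SCD (chromosome 10, 100347233 to 100364826, plus strand), the main delta-9 desaturase, was at 301, 319 and 317 CPM in 786-O and at 895, 686 and 916 CPM in resistant 786-O. The groups did not overlap, and the log2 fold change was 1.41 (SE 0.09, adjusted p = 3.7e-09, edgeR), a 2.67-fold rise. It was 1.53 without resistant 786-O replicate 2 and 1.29 with the trend with GC content and length removed. A498 was already at 1612, 1455 and 1345 CPM, and resistant A498 at 1476, 1536 and 1586 CPM overlapped with it (0.060 on the log2 scale, SE 0.09, adjusted p = 0.56, edgeR). Against 786-O, the libraries labelled resistant A498 were 4.91-fold higher, a log2 fold change of 2.29 (SE 0.09), and against resistant 786-O they were 1.84-fold higher. SCD was the member with the widest gap between the parents, at -2.24 on the log2 scale (SE 0.09) for 786-O against A498, or 0.212 of the A498 level.

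SCD5 (chromosome 4, 82629539 to 82798796, minus strand), a second delta-9 desaturase, was near its detection limit in both parents. Its libraries held 6, 3 and 2 counts in 786-O and 2, 0 and 4 in A498, against 82, 30 and 87 in resistant 786-O and 105, 83 and 122 in resistant A498. In CPM, the resistant 786-O libraries were at 1.67, 0.687 and 1.90 and the resistant A498 libraries at 3.91, 3.97 and 4.77. Every resistant library was above every parental one. The ratio of summed counts per library size was 15.9 for resistant 786-O over 786-O, with an exact 95% Poisson interval of 8.71 to 32.4. It was 58.7 (26.7 to 161) for resistant A498 over A498, 46.8 (25.8 to 94.8) for resistant A498 over 786-O and 2.94 (2.45 to 3.53) for resistant A498 over resistant 786-O, and these intervals cover counting error only. Those against a parent take no account of the filter and are not a test. SCD5 passed the filter on low counts through the resistant groups alone, so no test against a parent is given for it. Between the resistant groups it was higher in resistant A498 (adjusted p = 0.00044, edgeR). With the trend removed, the fitted log2 fold change of resistant 786-O over 786-O was 3.84. A difference between the 2 parents was not detectable at this depth. SCD nevertheless carried most of the delta-9 transcripts, with 481 to 999 SCD counts for each SCD5 count in resistant 786-O and 332 to 387 in resistant A498.

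FADS1 (delta-5 desaturase) and FADS2 (delta-6 desaturase) lie on opposite strands of chromosome 11, at 61799627 to 61829318 (minus) and 61792980 to 61867354 (plus), and their exons overlap over 490 bases. The paper reports a stranded library kit and a strand setting for counting, but the counts may not separate the strands. In 318 pairs, an inner gene lay inside the exons of an expressed host gene on the other strand. The inner gene had a median of 1.51 times the read density of its host, with 74.2% of pairs over 0.5. Inner genes can have reads of their own, so this ratio cannot settle the point. Reads in the shared bases therefore cannot be assigned with certainty to either gene. The shared stretch of FADS1 and FADS2 is short against merged exon lengths of 10228 and 10553 bases. FADS1 was at 206, 206 and 204 CPM in 786-O and at 283, 260 and 290 CPM in resistant 786-O, a log2 fold change of 0.43 (SE 0.05, adjusted p = 7.9e-07, edgeR). FADS2 was at 344, 334 and 343 CPM in 786-O and at 448, 437 and 485 CPM in resistant 786-O, a log2 fold change of 0.42 (SE 0.05, adjusted p = 3.3e-06, edgeR). Neither gene overlapped between the groups. With the trend with GC content and length removed, FADS1 was at 0.10 (adjusted p = 0.036, edgeR) and FADS2 at -0.057, not called (adjusted p = 0.30, edgeR).

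Both genes were highest in the libraries labelled resistant A498. FADS2 was at 724, 743 and 756 CPM there and at 279, 261 and 248 CPM in A498, a log2 fold change of 1.50 (SE 0.05, adjusted p = 1.6e-12, edgeR). FADS1 was at 394, 394 and 401 CPM against 207, 201 and 194 CPM in A498, a log2 fold change of 0.98 (SE 0.05). Against 786-O the values were 1.12 for FADS2 and 0.95 for FADS1, and against resistant 786-O 0.70 and 0.51. Both genes stayed called with the trend removed, at 1.81 and 1.19 against A498 and 0.82 and 0.69 against 786-O. The ratio of FADS1 to FADS2 counts was 0.593 to 0.618 in 786-O and 0.594 to 0.632 in resistant 786-O, which overlapped, and 0.742 to 0.784 in A498 against 0.530 to 0.544 in resistant A498.

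**Figure D4:**
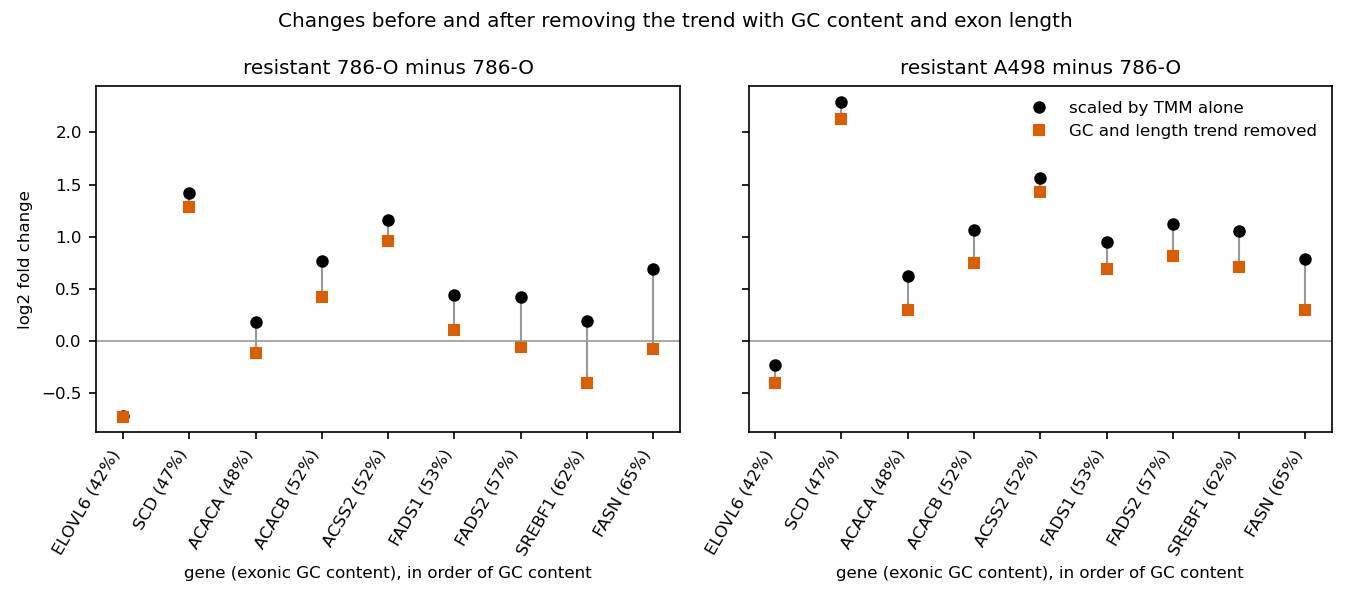
Log2 fold change (vertical axis) of 9 of the 10 genes, ordered by exonic GC content, for resistant 786-O minus 786-O and resistant A498 minus 786-O; circles are scaled by TMM alone and squares have each library's trend with GC content and exon length removed. SCD5 is left out because its values, 3.93 and 3.84 in resistant 786-O, would compress the axis. FASN went from 0.69 to -0.083 in resistant 786-O, whereas in resistant A498 all 9 genes kept their sign.

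The correction for GC content and length changed calls in several comparisons. With the trend removed, resistant 786-O against 786-O had 5 members called higher, 2 lower and 3 not called. Of all genes, 68.5% were called under this setting. The median over the members fell to 0.021, while that over all genes moved to -0.12. SCD, SCD5, ACSS2, ACACB, FADS1 and ELOVL6 kept their direction and call, though a call of SCD5 against a parent is not a test. SREBF1 turned from higher to lower, FASN and FADS2 lost their calls and ACACA was not called either way (-0.12 with the trend removed). In resistant A498 against 786-O, all 10 members kept their direction and call, where 65.3% of all genes were called. The median over the members was 0.73, against -0.13 over all genes. Elsewhere, FASN turned from -0.29 to 0.56 in 786-O against A498, and calls were gained by FASN in resistant A498 against resistant 786-O (0.38) and by ELOVL6 and ACSS2 in resistant A498 against A498. Whether the trend is technical was not tested. Relative to the shift of all genes, FASN and FADS2 in resistant 786-O stood at about the level of the median gene.

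The change from labelled parent to resistant group was also compared, as that in resistant A498 over A498 minus that in resistant 786-O over 786-O. This takes A498 as the parent of libraries that were closer to 786-O, so a difference between lines may enter it. The change differed for 7 of the 10 members, against 68.3% of all genes, with 3 higher (33.9% of all genes) and 4 lower (34.4%). For 4 members, ACACB, SCD, ACSS2 and FADS2, the difference was called and over 2-fold (35.1% of all genes). Among the called members, the largest differences were -1.69 for ACACB and -1.35 for SCD, and the parents themselves differed by -1.98 and -2.24 for these 2 genes (786-O minus A498). Between the parents, 6 members were lower and 2 higher in 786-O, where 36.1% and 38.2% of all genes were. SREBF1, ACACB, SCD and ACSS2 differed there by more than 2-fold (31.9% of all genes), and the libraries of 8 members did not overlap (80.2% of all genes), SCD5 and FADS1 being the exceptions. With the trend removed, FASN (0.56) and FADS1 (0.50) were called higher in 786-O and ACACA lost its call. ELOVL6 (0.19) lost its call with scaling by library size (adjusted p = 0.096, edgeR), with at least 10 counts in every library (0.065) and in DESeq2's Wald test (0.053).

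Other genes of the pathway were described by lists. Among 15 genes of sterol synthesis and uptake, the main targets of SREBP2, 12 rose and 1 fell in resistant 786-O against 786-O (median 0.51), where 35% and 33.5% of all genes did. The same counts, 12 and 1, were found against A498 in resistant A498 (median 0.58), where 36.3% and 36.4% of all genes were called higher and lower, and 14 and 1 against 786-O (median 0.88), where 31.6% and 32.1% were. The list counts that follow are to be read against these shares. HMGCS1, the synthase before HMG-CoA reductase, rose by 1.23 (SE 0.05) in resistant 786-O and by 1.50 and 1.95 in resistant A498 against A498 and 786-O. PMVK, phosphomevalonate kinase, was the gene that fell, by log2 fold changes of -0.16, -1.03 and -0.69. With the trend removed, the sterol median was 0.41 in resistant 786-O and 11 genes were higher. Under that setting, 68.5% of all genes were called, higher or lower.

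Of 10 genes for the control of SREBP processing and its partner factors, 2 were higher and 3 lower in resistant 786-O, 4 and 5 in resistant A498 against A498, and 2 and 2 against 786-O. INSIG1, which holds SREBP in the endoplasmic reticulum and is itself a target of SREBP, fell in resistant 786-O (305 to 192 CPM, log2 fold change -0.67, SE 0.05). In resistant A498 it was at 450 CPM, above A498 (0.24) and 786-O (0.56). INSIG2 fell in resistant 786-O too (-0.27), and so did SCAP, the SREBP escort (-0.24). In resistant A498, SCAP rose against A498 (0.72) and fell against 786-O (-0.19). NR1H3, the LXRα receptor, was at 4.50 CPM there and was lower than in A498 (15.3 CPM, -1.76) and than in 786-O (-0.30). MLXIPL was at 0.645 CPM or less in every group. Of 6 tested LXR targets outside fatty acid synthesis, 3 were higher and 2 lower in resistant 786-O, 3 and 0 against A498, and 5 and 0 against 786-O. In resistant 786-O, PLTP rose (50.4 to 77.1 CPM, 0.61), and APOE, of low level, went from 0.134 to 1.18 CPM. ABCA1, the cholesterol exporter, fell in resistant 786-O (-0.67) and was higher in resistant A498 than in A498 (0.53), with no call against 786-O (-0.024). MYLIP, which targets the LDL receptor for degradation, was higher in resistant A498 against both (1.96 and 1.64).

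Supply of cytosolic acetyl-CoA and NADPH was covered by 7 tested genes. In resistant 786-O, 4 were higher and 1 lower, led by IDH1 (105 to 243 CPM, log2 fold change 1.20, SE 0.05), which yields NADPH, while malic enzyme ME1 fell (-0.27). In resistant A498 0 were higher and 6 lower than in A498, with PGD, another source of NADPH, at -0.97 and IDH1 at -0.14. Against 786-O there were 4 higher and 1 lower, with IDH1 at 1.63 and PGD at 0.089, which was not called. Among 6 desaturase partners, 4 were higher and 1 lower in resistant 786-O. Cytochrome b5 (CYB5A), the electron donor of the desaturases, rose in resistant 786-O (5.46 to 12.7 CPM, 1.22) and was higher in resistant A498 than in 786-O (1.57) but lower than in A498 (-0.94).

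Genes of the elongation cycle gave 5 higher and 4 lower of 10 tested in resistant 786-O (35% and 33.5% of all genes), 6 and 2 against A498 (36.3% and 36.4%) and 6 and 1 against 786-O (31.6% and 32.1%) in resistant A498. HSD17B12, the ketoacyl reductase of this cycle, fell in all 3 comparisons (-0.89, -1.91 and -0.44). HACD1 and ELOVL7 rose in resistant 786-O (0.76 and 0.54) and in resistant A498 against 786-O (0.64 and 0.95). ELOVL5 rose in resistant A498 against A498 (0.85). HACD2, a dehydratase, fell in resistant 786-O (-0.52) and rose in resistant A498 against A498 (1.58), with no call against 786-O (0.091). Fatty acid activation gave 1 higher and 3 lower of 5 in resistant 786-O, with ACSS1, the mitochondrial acetate-activating enzyme, at 1.97 and ACSL1 at -0.73. In resistant A498, 2 were higher and 3 lower than in A498, where ACSL5 was at 2.35 and ACSS1 at -0.91. With 786-O as the reference there were 2 higher and 0 lower, with ACSS1 at 2.25 and ACSL5 at 0.14, which was not called. Glycerolipid synthesis, which takes up the products, was split, with 5 higher and 4 lower of 11 in resistant 786-O, 7 and 4 against A498, and 4 and 5 against 786-O. GPAT3, a glycerol-3-phosphate acyltransferase, fell in all 3 (-1.25, -2.49 and -0.93), whereas LPIN2 rose in all 3 (0.76, 0.87 and 0.78).

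Mitochondrial fatty acid synthesis is a separate pathway that makes the precursor of lipoic acid. Of its 9 genes, 2 were higher and 5 lower in resistant 786-O (median -0.39), the same numbers in resistant A498 against A498 (median -0.19), and 1 and 7 against 786-O (median -0.30). Among all genes, 33.5%, 36.4% and 32.1% were lower in these comparisons. HSD17B8 and CBR4, its 2 ketoacyl reductase subunits, were lower in resistant 786-O (-0.95 and -0.56) and in resistant A498 against A498 (-1.90 and -0.43) and 786-O (-1.40 and -0.30). LIPT2 was higher in all 3 comparisons (0.54, 1.32 and 0.74) at no more than 2.60 CPM.

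**Figure D5:**
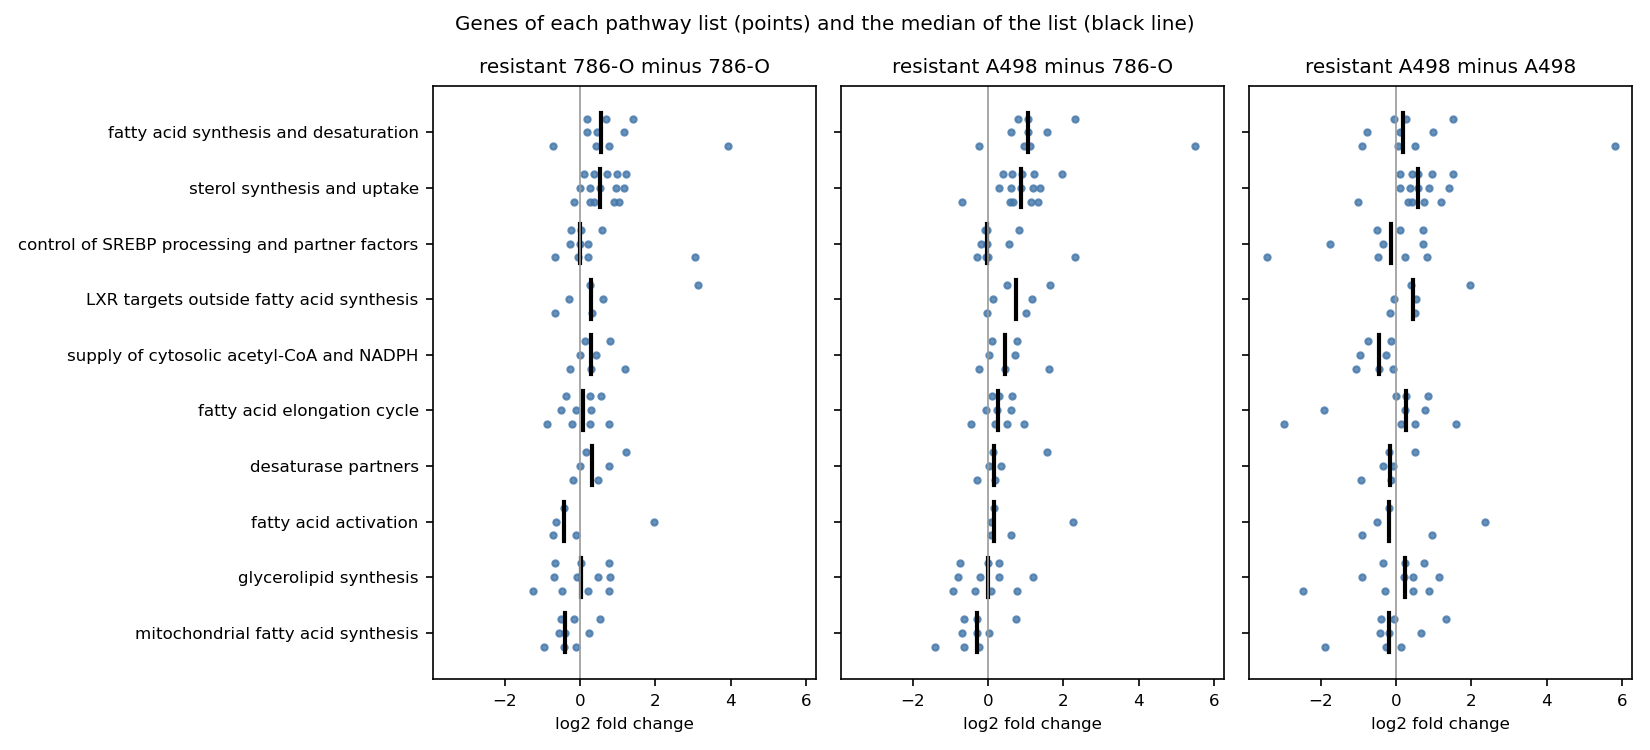
Log2 fold change (horizontal axes) of the tested genes of 10 pathway lists in 3 comparisons; each point is a gene and each black line is the median of its list. The sterol list has positive medians in all 3 panels (0.51, 0.88 and 0.58) and the mitochondrial fatty acid synthesis list negative ones (-0.39, -0.30 and -0.19).

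Over the 12 libraries, the genes whose log2 CPM followed a member most closely were described among 10085 genes of at least 10 CPM. Pearson's r was 0.99 for SCD with RIC1, CMIP and IDH1, 0.99 for SREBF1 with ALDH1A1, MID1IP1 and RNF141, and 0.997 for FADS2 with PATL1 and 0.99 with ZEB2 and YEATS2. SCD5 followed THRB (0.99), EVC (0.98) and SREBF2 (0.98). The libraries form 4 groups, so that these values describe the order of the groups. Among the members, r was 0.93 between SREBF1 and ACACB and 0.82 between SREBF1 and SCD, but 0.18 between SREBF1 and FASN, -0.0017 with FADS1 and -0.19 with FADS2.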

How the data were processed

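The authors deposited raw counts per gene for 12 polyA RNA-seq libraries. Per the submitters' processing notes, reads were trimmed with Trimmomatic 0.36.6, aligned to GRCh38 with HISAT2 2.1.0 and counted with featureCounts 1.6.3. All 45478 genes were matched by identifier, and 45283 gained a symbol, exon length and GC content. Counts were scaled by TMM (CPM), filtered with filterByExpr (19929 genes), and tested with edgeR 4.0.16 (quasi-likelihood F test, 4 group means, prior count 0.125) with Benjamini-Hochberg adjustment over all genes tested, at 0.05. The script was tested on simulated data of the comparison of resistant 786-O with 786-O. Of 200 genes changed 2-fold, 196 were recovered among 19284, and 11 unchanged genes were called. With so few genes changed, this checked the script and not its performance in these data. The genes named were drawn from all members and from the 3 genes most correlated with each member. From each list, up to 2 called genes with the largest rise and fall could be named. This applied to each comparison of a resistant group with a parental one. ACLY, and pathway genes named for their role, were chosen after their values were seen. One gene that this rule names is not reported here. The members and lists were chosen with earlier results of these data known. With 3 against 3 libraries, an exact permutation test cannot go below 0.1, so within-library ratios are given without a test. DESeq2 1.42.0 was an alternative. R 4.3.3, Python 3.11.15 and matplotlib 3.10.9 were used.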

Additional observations from a re-analysis of the deposited data

Results flagged for a closer look

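The change with resistance differed between the labelled pairs for 7 of the 10 members, and for 68.3% of all genes, by a test of the difference itself (edgeR, adjusted by Benjamini-Hochberg over all genes tested), given here as the log2 fold change of resistant A498 over A498 minus that of resistant 786-O over 786-O. The difference was -1.69 for ACACB (SE 0.16, adjusted p = 2.4e-07), -1.35 for SCD (SE 0.13, adjusted p = 1.9e-07), -1.05 for ACSS2 (SE 0.07, adjusted p = 1.9e-09) and -0.96 for SREBF1 (SE 0.10, adjusted p = 5.9e-07). It was 1.07 for FADS2 (SE 0.07, adjusted p = 5.0e-09), 0.68 for ELOVL6 (SE 0.08, adjusted p = 2.7e-06) and 0.55 for FADS1 (SE 0.06, adjusted p = 2.6e-06). The difference for SREBF1 was -0.0084 and not called with the trend with GC content and exon length removed. These values rest on A498 as the parent of libraries that were closer to 786-O. Groups of 3 libraries were not tested for single libraries that stand apart.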

How the results depend on the processing

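DESeq2's size factors in edgeR and a prior count of 2 changed no member's call in any comparison. DESeq2's Wald test lost ELOVL6 in 786-O against A498 (adjusted p = 0.053) and called SCD5 in the difference (0.047). Scaling by library size alone called ACACA in resistant 786-O against 786-O (0.32) and ACSS2 in resistant A498 against A498 (0.17) and lost ELOVL6 against 786-O and between the parents. ACACA was called in resistant 786-O also with no filter and with at least 10 counts in every library, ELOVL6 was lost between the parents with that minimum, SCD5 was called in the difference with no filter, and ACSS2 was called against A498 in the fit of the groups compared alone. ACACB in resistant A498 against resistant 786-O was lost with no filter, in that fit and after thinning to the smallest library. With scaling by library size alone, the median over all genes moved to 0.18 in resistant 786-O against 786-O and to 0.15 in resistant A498 against 786-O. When a change of more than 2-fold was also required, 3 members were called in resistant 786-O against 786-O, 2 in resistant A498 against A498, 6 in resistant A498 against 786-O, 1 in resistant A498 against resistant 786-O, 4 in 786-O against A498 and 4 in the difference of the 2 changes. The counts of a resistant group against a parent, here and with replicates left out, include SCD5, whose call there is not a test. Leaving out each replicate in turn, the members called ranged from 8 to 10 in resistant 786-O against 786-O (62.4% to 73.6% of all genes), from 6 to 8 in resistant A498 against A498 (67.1% to 77.4%), from 10 to 10 in resistant A498 against 786-O (56.2% to 69.2%), from 8 to 9 in resistant A498 against resistant 786-O (36.6% to 53.3%), from 7 to 8 in 786-O against A498 (69.0% to 79.3%) and from 7 to 8 in the difference (63.5% to 72.8%). FASN differed in that test without resistant 786-O replicate 2 (-0.32, adjusted p = 4.0e-05, edgeR).

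The deviations of libraries with the same replicate number correlated by -0.18 to 0.20, with 2 of 18 pairs over 0.1. Deviations from the mean of 3 libraries are not independent, so these values cannot show whether the number marks a shared preparation. The replicate block changed 1 call, that of ACACB in resistant A498 against resistant 786-O (0.30, adjusted p = 0.062, edgeR).

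With the trend with GC content and exon length removed, direction changed for ACACA (-0.12, not called either way), SREBF1 (-0.40), FASN (-0.083) and FADS2 (-0.057) in resistant 786-O against 786-O, for SCD in resistant A498 against A498 (-0.063, not called either way), for FASN in 786-O against A498 (0.56) and for FASN in the difference (0.94). With the replicate block as well, the 5 others, in this order, were -0.40, -0.085, -0.056, 0.56 and 0.94. The trend with GC content alone, an alternative chosen after seeing the data like that with length alone, gave -0.34 for SREBF1 in resistant 786-O, 0.42 for FASN in 786-O against A498 and 0.89 for FASN in the difference, while length alone reversed 0 members. The trend shifted the median over all genes to 0.19 in 786-O against A498 and to 0.18 in the difference, and the cause was not tested.

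The study's own two-sided test of raw counts, without scaling or adjustment, called 6 members in resistant 786-O against 786-O (41.2% of all genes), losing SREBF1, FASN and SCD5, and 4 members each in resistant A498 against A498 (31.2%), in resistant A498 against 786-O (66.4%), in resistant A498 against resistant 786-O (67.4%) and in 786-O against A498 (55.5%). It leaves depth in the values, since resistant A498 libraries held fewer counts, and reversed ACACA in resistant A498 against 786-O (-0.12), FASN (0.26) and ACACA (0.19) in 786-O against A498, and in resistant A498 against resistant 786-O SREBF1 (-0.062), ACACA (-0.48), ACACB (-0.63), SCD (-0.044), ELOVL6 (-0.42), FADS1 (-0.40), FADS2 (-0.22) and ACSS2 (-0.51). Lengths from a table of proteins were not run, and coding lengths of the annotation were used in their place, also chosen after seeing the data.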
